A study of Canis lupus familiaris with 8 samples.

Results

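A set of 5 enzyme genes that reduce anthracyclines or work beside such enzymes was followed on 8 one-colour Agilent arrays of a canine mammary carcinoma line. They were CYB5R3, POR, AKR1A1, NOS3 and FMO1, taken as every gene probe whose accession maps to one of these 5 symbols. This gave 13 of 43603 gene probes, of which 2353 probes (5.40%) could be given any symbol, for 1458 genes. CYB5R3 had 1 probe, POR and AKR1A1 had 3 each, NOS3 had 4 and FMO1 had 2.

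Doxorubicin is an anthracycline with a quinone ring and a side-chain carbonyl. Flavoproteins that carry single electrons from NADPH or NADH, among them POR, CYB5R3 and the reductase domain of nitric oxide synthases, can turn the quinone into a semiquinone that hands its electron to oxygen and yields superoxide. Aldo-keto and carbonyl reductases, AKR1A1 among them, instead reduce the side-chain carbonyl to an alcohol. FMO1 is a flavin monooxygenase that oxygenates nitrogen and sulfur atoms of drugs and is best known from liver and kidney.

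The groups were CMT-Stylo cells, listed as untreated (Stylo parent), CMT-Star cells (Star parent), and the CD44+, CD24-/low, ALDH+ cells sorted from each by flow cytometry (Stylo CSC and Star CSC), with 2 arrays per group. CMT-Star arose from CMT-Stylo through months of rising doxorubicin until the cells grew at 100 nM, is a single subline, and is labelled doxorubicin treated. All cells grew in the same serum-containing medium. The labels name no separate cultures behind the replicate numbers, so the p-values cover only array-to-array spread, which may be technical.

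A level is the log2 of the processed signal minus the log2 of that array's 75th percentile, so 0 is the 75th percentile of the array. Testing was limited to probes that Agilent's software marked as well above background on each array of some group, which left 26823 probes, 11 of the 13 probes of the 5 genes among them. A probe was called where limma's moderated test gave a Benjamini-Hochberg adjusted p under 0.05 over all tested probes and the change was at least 2-fold. With 2 arrays a group, precision is limited by their number.

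The 75th percentile of the signal was 88.3 and 69.2 on the Stylo parent arrays, against 296 to 536 on the other 6, and 46.7% to 60.6% of probes were well above background. Each line filled 1 slide of its own, so slide and line cannot be told apart wherever the lines are compared. Because Stylo parent was dimmer, the scaling matters in the comparisons that use it: the median change of all tested probes, Star parent minus Stylo parent, was -0.20 after 75th percentile scaling, 1.97 with no scaling and 1.98 with spike-in scaling. Of the epithelial markers, 4 of 10 had a probe (KRT14, KRT19, CDH1 and CLDN3), with a summed level, as a multiple of the 75th percentile, of 3.41 to 4.16 in Stylo parent, 2.27 to 2.42 in Stylo CSC, 0.817 to 0.974 in Star parent and 0.859 to 0.945 in Star CSC. KRT19 did not stand well above background in Stylo parent or Stylo CSC, nor CDH1 in Stylo parent.

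**Figure D1:**
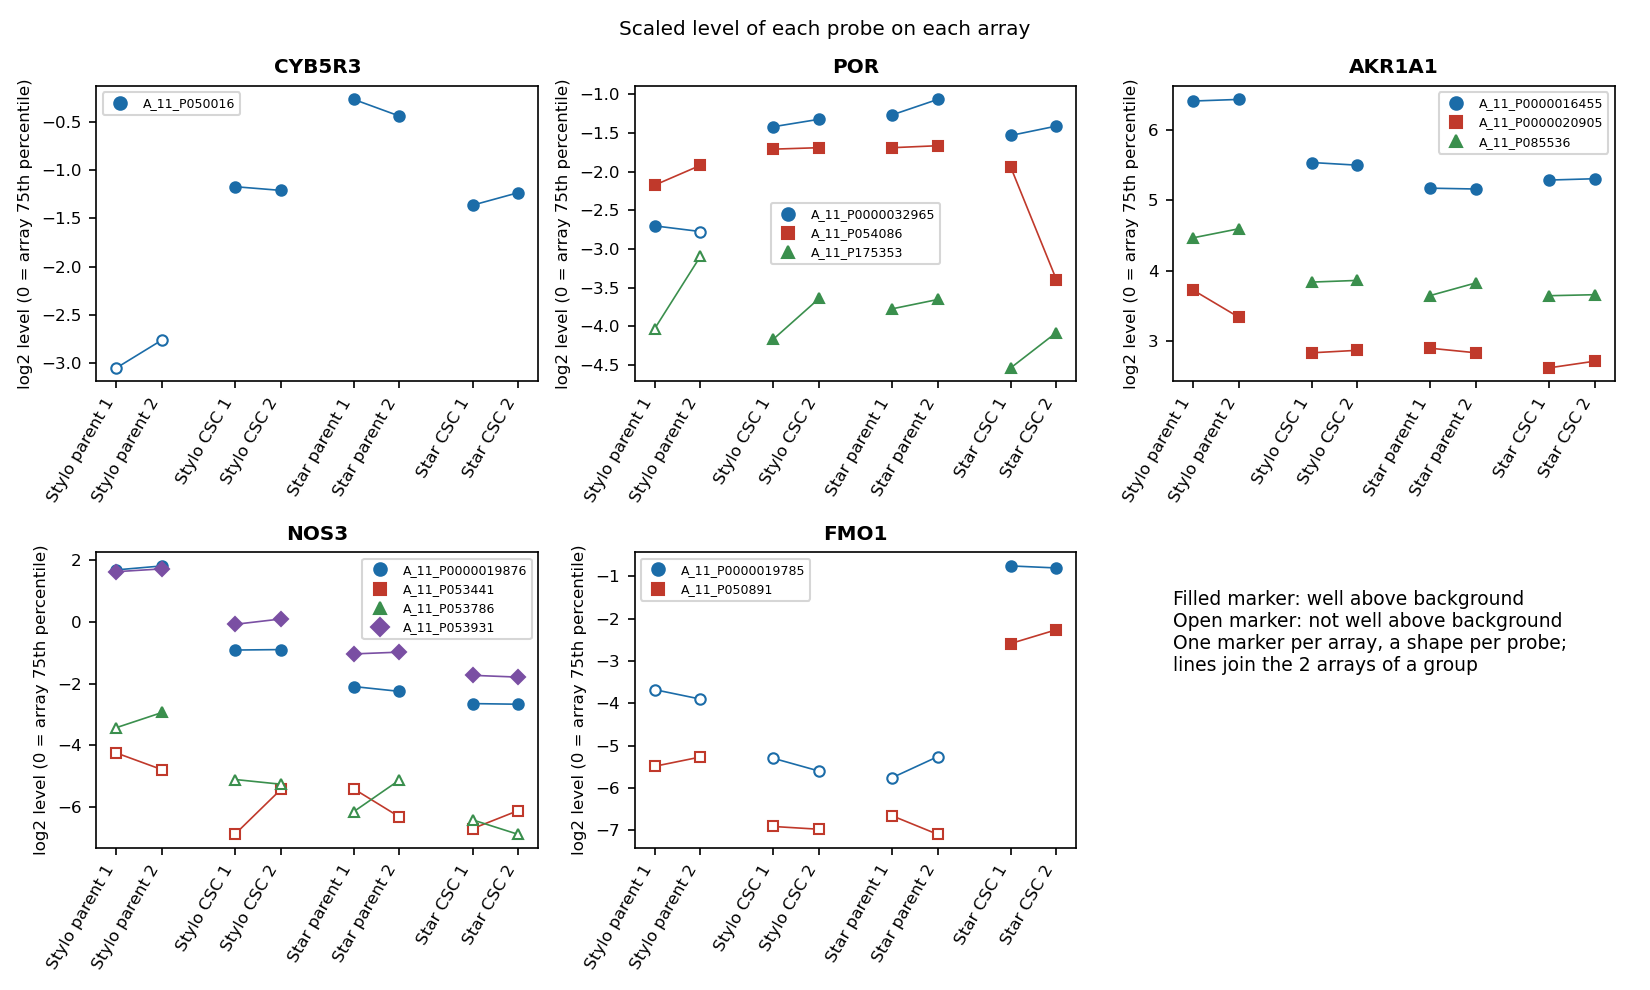
Scaled log2 level (y axis, 0 is the array's 75th percentile) of the 13 probes on each of the 8 arrays (x axis), by gene. Filled markers were well above background and open ones were not. FMO1 was well above background in Star CSC alone, and both brighter NOS3 probes stood highest in Stylo parent.

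CYB5R3, the NADH-dependent reductase of cytochrome b5, was measured in 3 groups, and in Stylo parent its signal did not stand well above background. Its level was -3.05 and -2.76 in Stylo parent, -1.17 and -1.21 in Stylo CSC, -0.26 and -0.44 in Star parent, and -1.36 and -1.23 in Star CSC. Star parent was highest, Stylo parent lowest, and the sorted groups lay between with a gap of only 0.11 between their means. CYB5R3 was called higher in Star parent than in Stylo parent, by at least 5.90-fold (limma adjusted p = 1.5e-05), and higher in Stylo CSC than in Stylo parent, by at least 3.29-fold (limma adjusted p = 8.2e-05). In Stylo parent its own signal was above the lowest signal that counted as well above background, so it set both bounds. These bounds therefore equal the fitted folds, and at least refers to the dim side and not to the spread. The 95% intervals of the log2 changes ran from 2.23 to 2.89 and from 1.39 to 2.05. Within the resistant line the sorted cells stood below the unsorted ones by a log2 change of -0.95 ± 0.14 (SE). The limma adjusted p was 0.0059, and the change was just under the fold limit. It was past that limit without Star parent replicate 2 (-1.04) or without Star CSC replicate 2 (-1.01), but its direction turned with spike-in scaling. Sorted cells of the lines did not differ by the test (log2 change -0.11, 95% interval -0.44 to 0.22, limma adjusted p = 0.52). With normexp background correction the difference between the unsorted lines was 0.062, a bound of 1.04-fold, and was no longer called, and that between Stylo CSC and Stylo parent turned to -0.64.

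POR, the reductase that feeds electrons to microsomal cytochromes P450 and to heme oxygenase, was read by 3 probes that disagreed. Probe A_11_P0000032965 had levels of -2.70 and -2.77 in Stylo parent, -1.42 and -1.32 in Stylo CSC, -1.27 and -1.07 in Star parent, and -1.53 and -1.41 in Star CSC. Stylo parent, where 1 of 2 arrays was well above background, lay below all 6 other arrays. This probe was called higher in Star parent (log2 change 1.57 ± 0.11 SE, limma adjusted p = 4.7e-05) and in Stylo CSC (1.37 ± 0.11, limma adjusted p = 0.0001) than in Stylo parent, but normexp turned these to -0.43 and -0.72. The other 2 probes, A_11_P054086 and A_11_P175353, were not called in any of the 4 group comparisons in the main setting. Between Star parent and Stylo parent they were called higher with no scaling (2.53 and 2.01) and spike-in scaling (2.55 and 2.03). In each of these settings 94.1% of all calls in that comparison were higher. With normexp A_11_P175353 was called lower there (-1.53).

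Probe A_11_P054086 of POR stood at -2.17 and -1.92 in Stylo parent, -1.71 and -1.69 in Stylo CSC, -1.69 and -1.67 in Star parent, and -1.94 and -3.40 in Star CSC. The 2 Star CSC arrays were 2.74-fold apart, a gap reached by 2.63% of 26776 tested probes, and the log2 change from Star parent was -0.99 ± 0.44 (SE, limma adjusted p = 0.14). Without Star CSC replicate 1 it was -1.72 and called. Probe A_11_P175353 failed to stand well above background in Stylo parent, and its levels overlapped between Stylo parent and both groups compared with it, between -4.17 and -3.10.

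AKR1A1, an aldehyde reductase of broad range, was well above background on all 8 arrays with each of its 3 probes. Probe A_11_P0000016455 had levels of 6.42 and 6.44 in Stylo parent, 5.54 and 5.50 in Stylo CSC, 5.18 and 5.16 in Star parent, and 5.29 and 5.31 in Star CSC. Stylo parent stood above the other groups with no overlap, as it did with the other 2 probes. The probe was called lower in Star parent than in Stylo parent by limma (log2 change -1.26 ± 0.08 SE, adjusted p = 3.6e-05), but the direction turned with normexp (0.43), spike-in scaling (0.92) and no scaling (0.90), and the call was lost with median, detected-probe, quantile and cyclic loess scaling.

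The remaining AKR1A1 probes, A_11_P0000020905 and A_11_P085536, gave -0.67 and -0.80 in the same comparison, under the fold limit. Before scaling, A_11_P0000016455 had processed signals of 7545 and 6010 in Stylo parent, 13413 and 11854 in Star parent, 14414 and 13443 in Stylo CSC, and 20978 and 18396 in Star CSC, so Stylo parent was the lowest group before scaling and the highest after it. Between sorted and unsorted Star cells the 3 probes differed by 0.13, -0.20 and -0.09 in the order given, with limma adjusted p of 0.28, 0.33 and 0.57 and 95% intervals that stayed within -0.55 and 0.34.

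**Figure D2:**
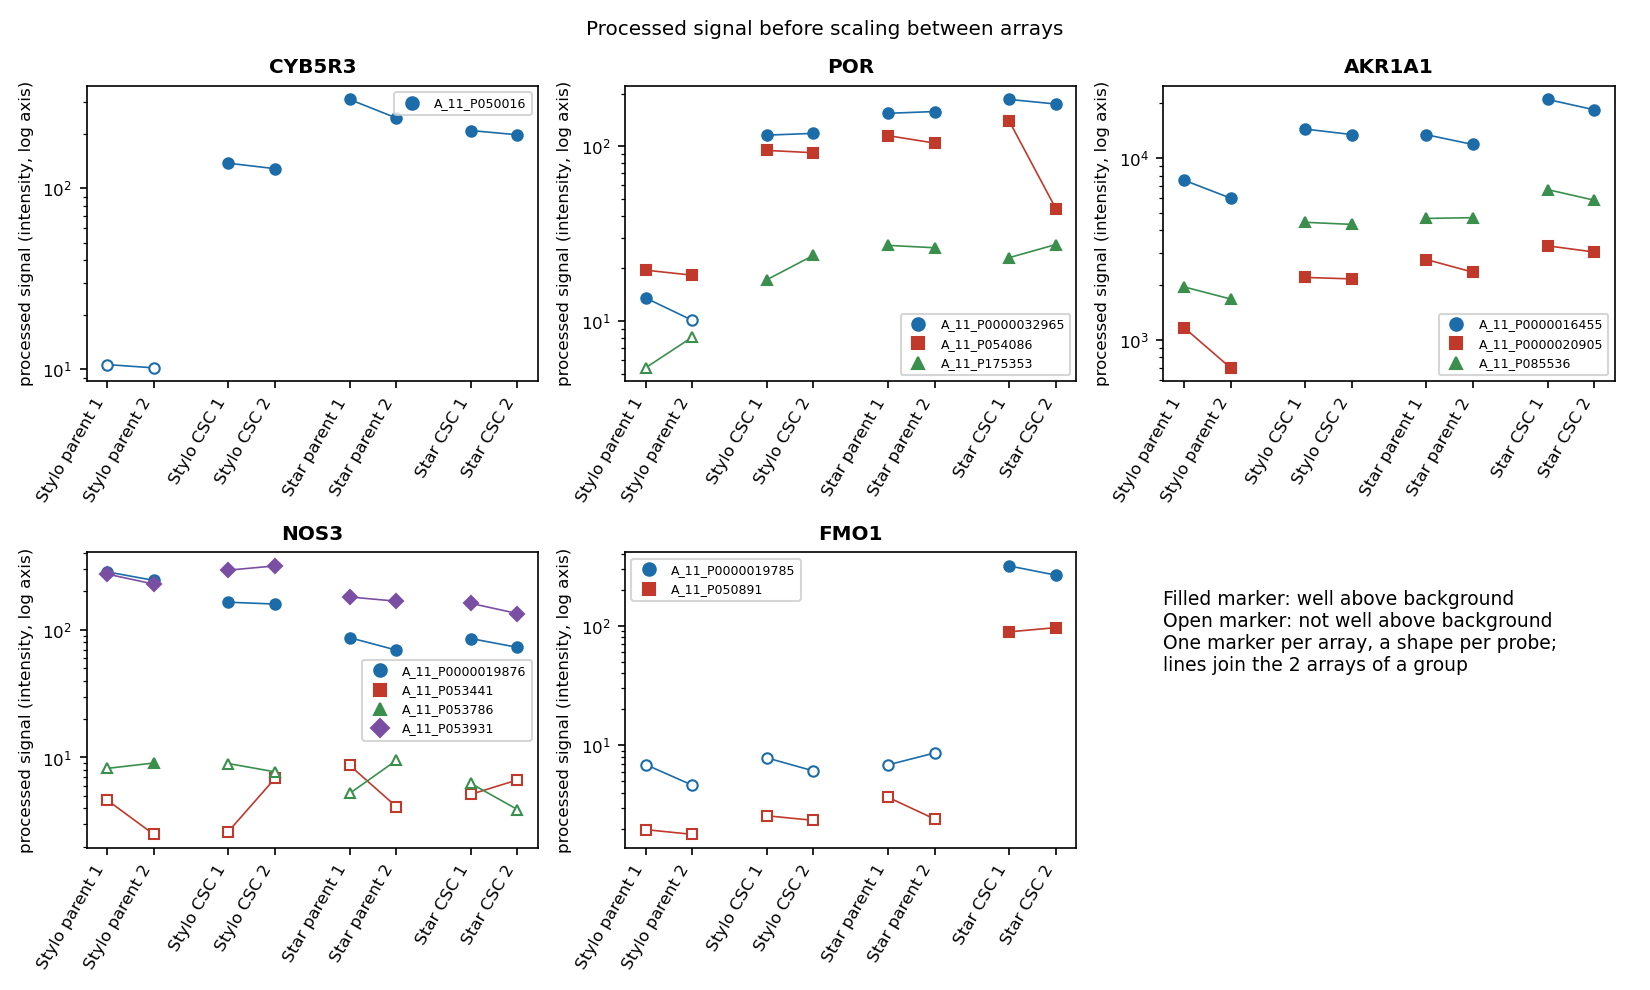
Processed signal before scaling (y axis, intensity, log axis) of the 13 probes on each of the 8 arrays (x axis), with filled markers well above background. AKR1A1 was dimmest in Stylo parent here, whereas NOS3 A_11_P0000019876 was brightest there, at 285 and 244.

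NOS3, the endothelial nitric oxide synthase, had its highest scaled level in unsorted sensitive cells and its lowest in sorted resistant cells with both of its brighter probes. Probe A_11_P0000019876 had levels of 1.69 and 1.82 in Stylo parent, -0.91 and -0.90 in Stylo CSC, -2.10 and -2.25 in Star parent, and -2.65 and -2.67 in Star CSC. No groups overlapped. It fell by 3.93 ± 0.10 (SE) on the log2 scale from Stylo parent to Star parent (limma adjusted p = 4.4e-06), and 1.83% of tested probes had a lower change. Its processed signal moved the same way, from 285 and 244 in Stylo parent to 86.8 and 69.4 in Star parent. In Star CSC the processed signals were 85.4 and 72.9, which overlapped those in Star parent.

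Probe A_11_P053931 of NOS3 had levels of 1.63 and 1.72 in Stylo parent, -0.08 and 0.10 in Stylo CSC, -1.04 and -0.98 in Star parent, and -1.73 and -1.79 in Star CSC. The order of the groups was that of the first probe, again with no overlap, and the step between Stylo CSC and Star parent was not tested with either probe. Before scaling, A_11_P053931 was brighter in Stylo CSC than in Stylo parent, with processed signals of 293 and 317 against 273 and 228. It was called lower in Star parent than in Stylo parent (log2 change -2.68 ± 0.10 SE, limma adjusted p = 6.6e-06), a call lost with no scaling (-0.52) and spike-in scaling (-0.50). The first probe was called lower in Star parent under every alternative run, from -4.02 to -1.74.

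Both probes also stood lower in Stylo CSC than in Stylo parent, by log2 changes of -2.66 and -1.67 (limma adjusted p = 1.3e-05 and 3.6e-05). The first lost its call with no scaling (-0.70) and spike-in scaling (-0.20), and the second turned with these (0.29 and 0.79) and lost its call with normexp (-0.69). Sorted resistant cells were lower than sorted sensitive cells by log2 changes of -1.75 and -1.77 (limma adjusted p = 9.7e-05 and 9.8e-05), and these calls were lost with spike-in scaling (-1.04 and -1.05). From Star parent to Star CSC the changes were -0.48 and -0.75 (limma adjusted p = 0.019 and 0.0054), both under the fold limit.

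The remaining NOS3 probes carried little signal. A_11_P053441 was not well above background on any array, and A_11_P053786 was so only on Stylo parent replicate 2, with a processed signal of 9.05. Of 8 endothelial markers, VWF and KDR had probes, and KDR was not well above background in Stylo parent or Stylo CSC. Their summed level, as a multiple of the 75th percentile, was 2.25 to 2.72 in Stylo parent, 1.05 to 1.31 in Stylo CSC, 1.18 to 1.48 in Star parent and 0.560 to 0.960 in Star CSC. The part of these markers in the NOS3 differences was not tested, and fewer cells of a type and less RNA per cell cannot be told apart in bulk RNA.

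FMO1 was well above background only in Star CSC, with both probes and on both arrays. Probe A_11_P0000019785 had processed signals of 6.89 and 4.63 in Stylo parent, 7.84 and 6.10 in Stylo CSC, 6.85 and 8.61 in Star parent, and 318 and 266 in Star CSC. Probe A_11_P050891 had 1.97 and 1.79 in Stylo parent, 2.57 and 2.35 in Stylo CSC, 3.67 and 2.41 in Star parent, and 89.1 and 96.7 in Star CSC. The Star CSC arrays stood apart from all 6 others with each probe. This pattern of detection was shared by 287 of the 43603 gene probes, or 0.658%.

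FMO1 was called higher in Star CSC than in Star parent by at least 19.4-fold with A_11_P0000019785 and at least 6.18-fold with A_11_P050891 (limma adjusted p = 0.0003 for each). Against Stylo CSC the bounds were at least 16.2-fold and at least 5.17-fold (limma adjusted p = 3.8e-05 and 3.7e-05). These probes entered the test only through Star CSC, the group where they were high. Their calls therefore had to come out higher, and the p-values add no support of their own. The first probe was called under every alternative that could test it, but with normexp its bounds were 3.10-fold and 3.41-fold. The second lost its call with normexp, at log2 changes of 0.60 and 0.97. No fold is given between the other groups, where FMO1 was not well above background on either side.

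Hepatocyte and leukocyte markers were also brighter in Star CSC than in Star parent. Of 6 hepatocyte markers, APOA2 and SERPINA1 had probes, and their summed level as a multiple of the 75th percentile was 0.117 to 0.125 in Star parent and 2.51 to 3.002 in Star CSC. Of 6 leukocyte markers, CD86, TYROBP and CD79A had probes, with a summed level of 0.0988 to 0.129 in Star parent and 1.02 to 1.07 in Star CSC. The endothelial sum was lower in Star CSC than in Star parent, as given above, and that of the 5 of 6 fibroblast markers with a probe was 126 to 198 in Star parent and 114 to 125 in Star CSC. The part of these markers in the FMO1 result was not tested. The fibroblast sum was 77.5 to 84.3 in Stylo parent and 608 to 649 in Stylo CSC, and its part in the CYB5R3, POR and NOS3 differences between those groups was likewise not tested.

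**Figure D3:**
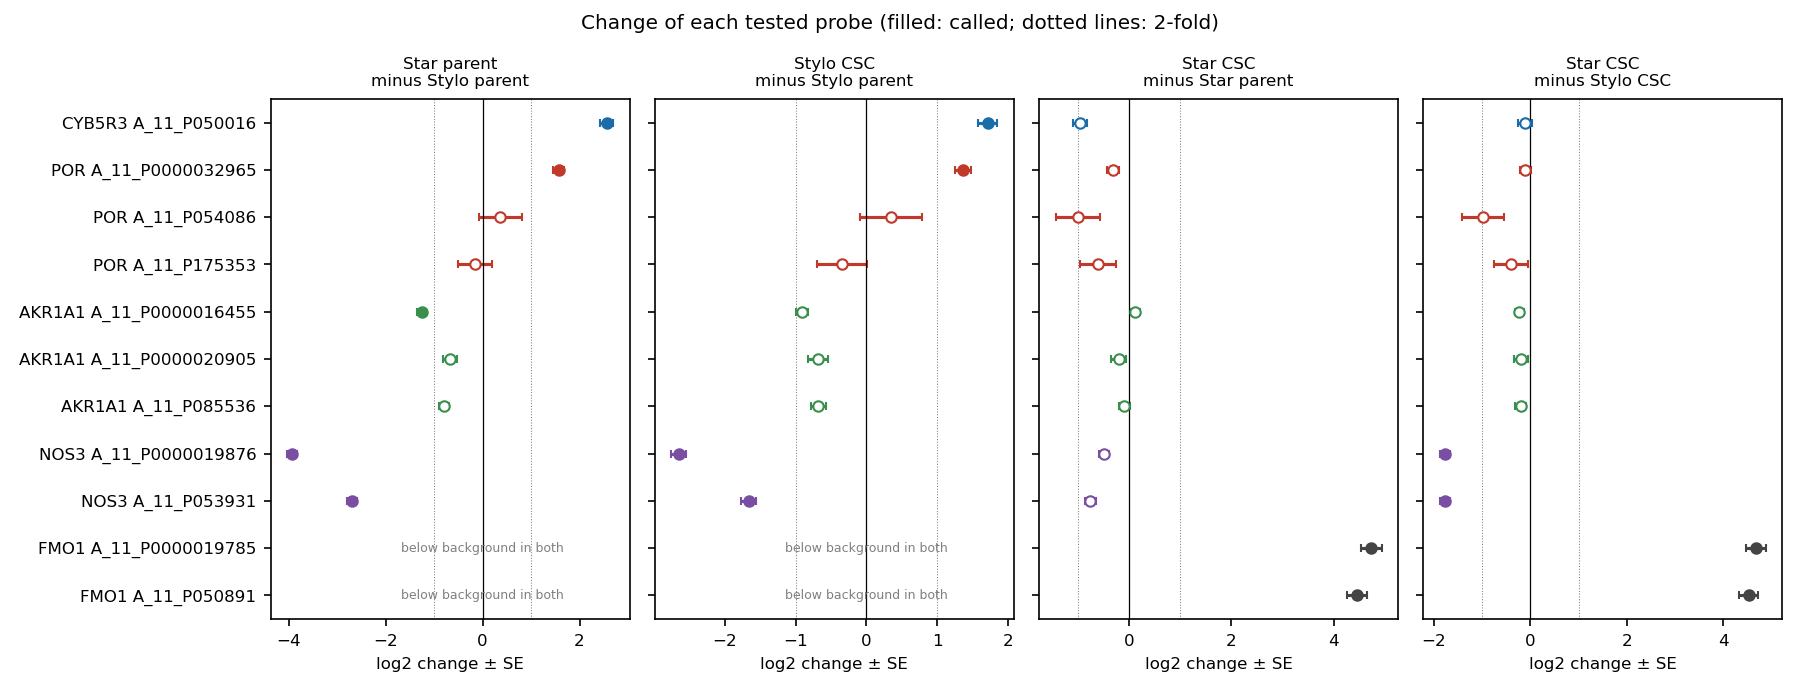
Log2 change ± SE (x axis) of the 11 tested probes (y axis) in the 4 group comparisons, with filled markers called and dotted lines at 2-fold. CYB5R3 and 1 POR probe lie to the right and NOS3 to the left in both comparisons with Stylo parent, and FMO1 lies to the right in both comparisons of Star CSC.

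Taking the 5 genes as a list, 7 of 11 tested probes were called between Star parent and Stylo parent, 2 higher and 5 lower, where 56.5% of all tested probes were called, 24.6% higher and 31.9% lower. The sensitive line's sorted cells against its unsorted ones gave 6 calls, 2 higher and 4 lower, beside 54.0% of all tested probes, 21.9% higher and 32.1% lower. In each of these comparisons 2 of the lower calls were FMO1 probes that were not well above background in either group. These shares lie near those of all probes. The median change of the 11 probes was -0.80 and -0.68, beside -0.20 and -0.28 for all tested probes.

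Between Star CSC and Star parent, 2 of the 11 were called, both FMO1 and both higher, where 9.72% of all tested probes were called, 3.22% higher and 6.51% lower. The FMO1 probes passed the filter only through Star CSC, the group where they were high, so their calls in the comparisons of Star CSC had to come out higher and are not read against these shares. Between Star CSC and Stylo CSC 4 were called, the 2 FMO1 probes higher and 2 NOS3 probes lower, beside 29.4% of all tested probes, 12.6% higher and 16.9% lower. The medians of the 11 were -0.31 and -0.20, against -0.10 and -0.10 for all tested probes. These comparisons share arrays, so their counts are not independent.

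**Figure D4:**
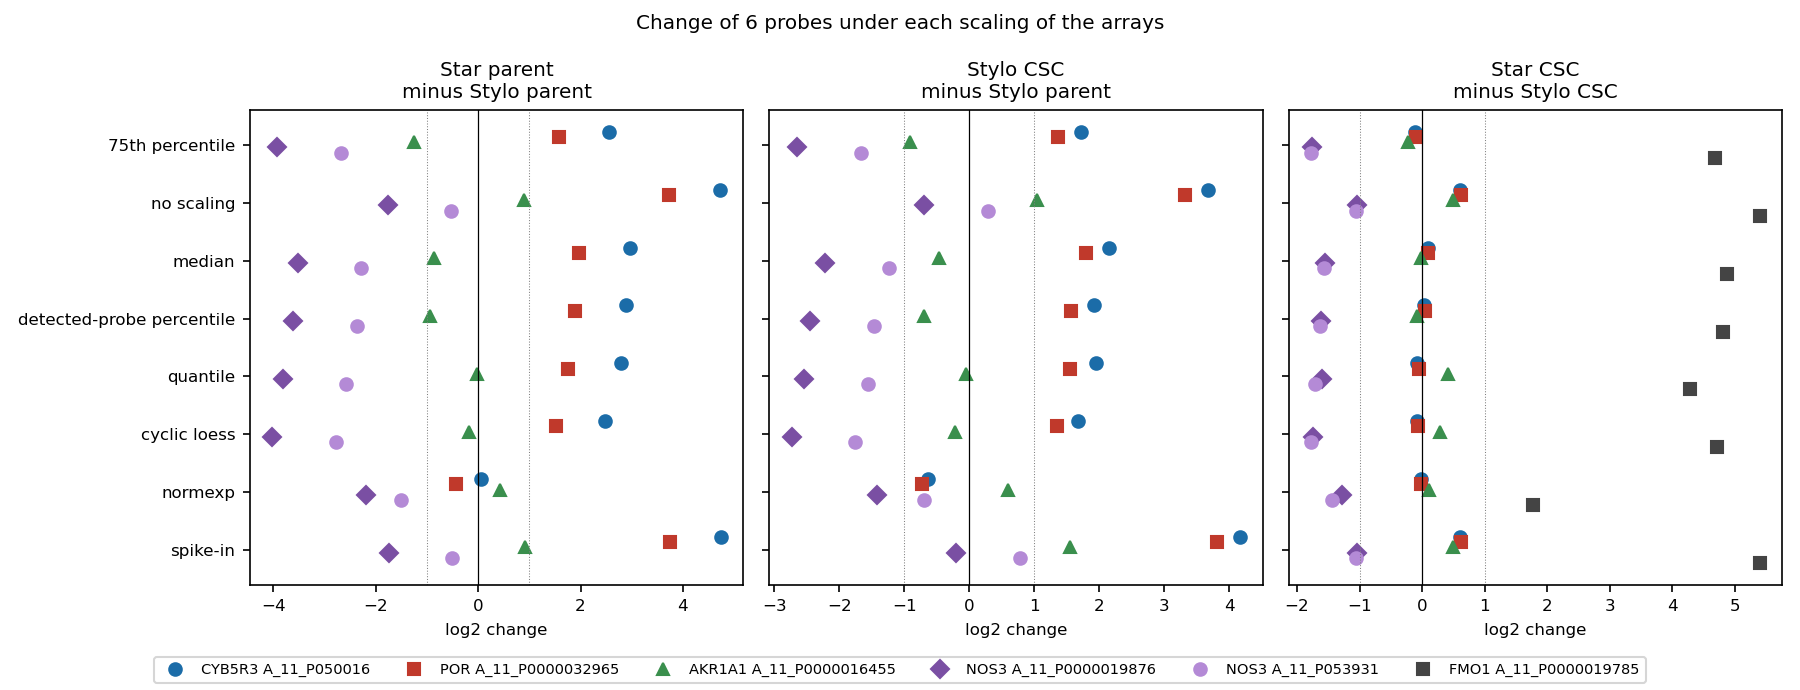
Log2 change (x axis) of 6 probes under 8 scalings of the arrays (y axis) in 3 comparisons. NOS3 A_11_P0000019876 stays left of 0 throughout, whereas AKR1A1 crosses 0 between scalings and CYB5R3 and POR A_11_P0000032965 drop towards or below 0 with normexp where Stylo parent is compared.

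The sorting effect, CSC minus parent, was compared between the lines by an interaction term. It differed for 6 of the 11 probes, 4 positive and 2 negative, where 52.1% of all tested probes were called, 28.2% positive and 24.0% negative. The 2 FMO1 probes among the positive ones passed the filter only through Star CSC, where they were high. Their interactions had to come out positive and are not read against these shares. CYB5R3 had an interaction of -2.67 ± 0.19 (SE, limma adjusted p = 0.00011), its level standing higher after sorting in Stylo and lower in Star. The drop in Star (-0.95) was not called and turned with spike-in scaling. With normexp the CYB5R3 interaction was -0.085 and no longer called, and the interaction of POR A_11_P0000032965 went from -1.67 to 0.42. All 6 values involve the dim Stylo parent arrays.

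The profiles most like these genes over the 8 arrays were sought among 1167 named probes well above background on all of them, by the root mean square difference of centred log2 levels. The nearest to NOS3 A_11_P0000019876 was SEC61G, a translocon subunit, at 0.14. The nearest to NOS3 A_11_P053931 was RPS14, a ribosomal protein, at 0.146, closely followed by RHAG at 0.149. AKR1A1 A_11_P0000016455 lay nearest to SDHB, a subunit of succinate dehydrogenase, at 0.080. The other AKR1A1 probes had other nearest genes, ESRRA for A_11_P0000020905 (0.073) and IL6ST for A_11_P085536 (0.076). POR A_11_P054086, whose Star CSC arrays were 2.74-fold apart, lay nearest to TUBG1, a gamma-tubulin, at 0.076.

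Other flavin reductases and oxidases formed a list of 29 genes with the members, 9 of which were tested. Between Star parent and Stylo parent, 4 were called higher and 3 lower, with a median of 0.47, beside 24.6% higher, 31.9% lower and a median of -0.20 for all tested probes. The members POR and CYB5R3 were among the higher genes and NOS3 among the lower, so these counts reuse their results. TXNRD1, a thioredoxin reductase, was called higher with all 4 of its tested probes (representative probe 2.64 ± 0.15 SE, limma adjusted p = 1.8e-05). CYBB, the catalytic subunit of the phagocyte NADPH oxidase, was lower by at least 15.2-fold. NDUFS8, a complex I subunit, was called lower at -1.79, but stood at 0.39 with spike-in scaling and 0.37 with no scaling, and lost its call with quantile, cyclic loess and normexp (-0.74 to -0.16).

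In the other comparisons the same list gave 2 higher and 4 lower in Stylo CSC against Stylo parent, 0 higher and 1 lower in Star CSC against Star parent, and 2 higher and 3 lower in Star CSC against Stylo CSC. The shares of all tested probes were 21.9% and 32.1%, 3.22% and 6.51%, and 12.6% and 16.9% in that order. The 2 higher genes in Stylo CSC against Stylo parent were the members POR and CYB5R3. NOS3 was among the lower genes there and in Star CSC against Stylo CSC. The gene lower in sorted Star cells was DUOX1, a hydrogen peroxide-producing oxidase (log2 change -3.29 ± 0.27 SE, limma adjusted p = 0.0013). NOS2, the inducible nitric oxide synthase, was called higher in Star CSC than in Stylo CSC (1.14 ± 0.37, limma adjusted p = 0.039), a call lost with the replicate number as a block, with quantile (1.20), normexp (0.37) or no filter, and without any one array of Stylo CSC, Star parent or Star CSC (1.02 to 1.25). These losses are of its representative probe, and the other tested NOS2 probe, A_11_P050451, was also called higher there, at 2.17. TXNRD1 was called higher in this comparison as well (1.18 ± 0.15), with 2 of its 4 probes.

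CYBB was called lower in Stylo CSC than in Stylo parent (-2.90 ± 0.21 SE, limma adjusted p = 6.4e-05) and was lower in Star CSC than in Stylo CSC by at least 2.55-fold. The first call was lost with no scaling (-0.95) and spike-in scaling (-0.45), and the second with these (-0.76 for both) and with normexp (-0.64). DUOX1 was called lower in the same comparisons, at -2.13 ± 0.27 and -1.11 ± 0.27. The first of these DUOX1 values turned to 0.32 with spike-in scaling, and fell under the threshold with no scaling (-0.18). The second lost its call without any one of the 4 CSC arrays (-1.13 to -1.09) and with median, detected-probe, quantile, normexp, spike-in and no scaling (-0.97 to -0.39). In the interaction the list gave 2 positive and 5 negative calls, led by CYBB at 2.47 and CYB5R3 at -2.67, beside 28.2% and 24.0% of all tested probes, and the CYBB call was lost with spike-in scaling (1.01).

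Carbonyl and aldo-keto reductases numbered 18, of which AKR1A1 and DHRS4 were tested. DHRS4, a carbonyl-reducing short-chain dehydrogenase, was called higher in Stylo CSC than in Stylo parent with its representative probe (1.03 ± 0.12 SE, limma adjusted p = 0.00036). That call was lost without Stylo parent replicate 2 (0.94). The other tested DHRS4 probe, A_11_P092516, was also called higher there. Between Star parent and Stylo parent A_11_P092516 was called higher (1.71), whereas the representative probe was not called (0.54). With quantile (1.06), cyclic loess (1.20), normexp (1.95), spike-in (2.72) and no scaling (2.70) the representative probe was called higher in that comparison. Neither DHRS4 probe was called in the comparisons of Star CSC. Of 27 partners of POR and CYB5R3, 3 were tested. HMOX1, the heme oxygenase that takes electrons from POR, was called higher in Star parent than in Stylo parent (2.89 ± 0.20, limma adjusted p = 4.2e-05), a call lost with normexp (0.36). It was called lower in Star CSC than in Star parent (-1.18 ± 0.20, limma adjusted p = 0.01), and this was lost with median (-0.95), spike-in (-0.19), no scaling (-0.67), normexp (-0.97) and without Star parent replicate 1 (-1.14). MSMO1, a sterol oxidase of cholesterol synthesis, was called lower in Star parent than in Stylo parent (-1.38), but turned with normexp (0.18), spike-in scaling (0.80) and no scaling (0.79), and lost its call with median, quantile and cyclic loess scaling (-0.98 to -0.42). CYP1B1, a P450 supplied by POR, was called higher in Star parent than in Stylo parent (1.02) with its representative probe, whereas its other tested probe gave -0.41. The call was lost with cyclic loess (0.996) and without Stylo parent replicate 2 (0.92) or Star parent replicate 1 (0.93).

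In Stylo CSC against Stylo parent, HMOX1 (1.03 ± 0.20 SE) and CYP1B1 (1.18 ± 0.13) were called higher and MSMO1 lower (-2.43 ± 0.22). The CYP1B1 value is of its representative probe, and its other tested probe gave -0.52 and was not called. HMOX1 turned to -1.03 with normexp and lost its call without Stylo parent replicate 1 (0.71). MSMO1 turned to 0.027 with spike-in scaling and lost its call with no scaling (-0.47) and normexp (-0.90). MSMO1 was called lower in Star CSC than in Star parent (-1.08 ± 0.22, limma adjusted p = 0.016) with 1 of its 5 tested probes, a call lost with median (-0.85), spike-in (-0.095), no scaling (-0.57) and normexp (-0.86), with only the 4 arrays compared, and without either Star parent array (-1.09 and -1.08) or Star CSC replicate 1 (-0.74). No partner was called between the sorted groups with its representative probe. MSMO1 was called higher in Star CSC than in Stylo CSC with A_11_P0000021696 (1.44), A_11_P114051 (1.39) and A_11_P127974 (1.66). It was not called there with A_11_P149903 (0.27) or with its representative probe (-0.036). Of 5 flavin monooxygenases, FMO1 was the only one tested.

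Partners of nitric oxide synthase numbered 23, with 5 tested. Between Star parent and Stylo parent 1 was called higher and 3 lower, beside 24.6% and 31.9% of all tested probes, and their median was -1.04 beside -0.20. CAV1, the caveolin that binds and inhibits NOS3, rose by a log2 change of 1.05 ± 0.09 (SE, limma adjusted p = 0.00011). ARG2, an arginase that consumes the substrate of nitric oxide synthases, was lower at -3.25 ± 0.10 (limma adjusted p = 4.8e-06). SLC7A1, an arginine transporter, stood at -2.10 with a call but at 0.085 with spike-in scaling and 0.066 with no scaling, and lost its call with normexp (-0.59). GUCY1B1, a subunit of the nitric oxide receptor guanylate cyclase, was called lower at -1.04 but stood at 1.14 with spike-in scaling and 1.13 with no scaling. Its call was also lost with median, detected-probe and normexp settings (-0.72 to -0.59) and without replicate 1 of Stylo parent (-0.995) or Star parent (-0.98). It was called higher in Star CSC than in Star parent (1.28 ± 0.12, limma adjusted p = 0.0019). In Stylo CSC against Stylo parent, CAV1 was called higher (1.26 ± 0.09) and ARG2 (-2.11 ± 0.10), GUCY1B1 (-2.33 ± 0.12) and SLC7A1 (-1.66 ± 0.15) lower, and these 3 stood at 0.34, 0.12 and 0.79 with spike-in scaling and at -0.16, -0.38 and 0.30 with no scaling. ARG2 (-0.69) and SLC7A1 (-0.21) also lost their calls with normexp. GUCY1B1 (2.58 ± 0.12) and GUCY1A1 (1.64 ± 0.10), both subunits of the nitric oxide receptor, were called higher in Star CSC than in Stylo CSC.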

How the data were processed

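Cy3-labelled RNA of 8 samples was hybridised to Agilent one-colour canine arrays and scanned. The submitters' processing notes name Agilent Feature Extraction, version 11.5.1.1. The deposited scanner files hold the processed signal, an intensity corrected for background, per the file headers. The authors' deposited series matrix holds log2 values whose scale is not stated; relative differences between its columns matched 75th percentile scaling over 18346 probes, and its column medians ran from -0.27 to 1.01, so its centring stays unknown. It served as an alternative.

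Control and outlier spots were left out (none was an outlier among the 13 probes), spots were averaged per probe, and log2 signals were set against each array's 75th percentile. Limma 3.58.1 in R 4.3.3 fitted 4 group means on 8 arrays, with tests two-sided. Where a group was not well above background, a fold is a bound against the higher of that group's own signal and the lowest signal well above background on each array. Each probe was kept apart, and where a gene needed 1 value, that of its brightest tested probe on average was used. Probes were named through RefSeq accessions, with no coordinates used. List genes are named as the 3 largest calls per list and direction, and all of a list of 4 or fewer tested genes, the 5 genes counted among them. Replicate numbers did not pair the samples (correlations of deviations from -0.068 to 0.073). The fit was tested on simulated data. The genes, lists and rules were chosen with earlier results of these data known. Alternatives covered scaling, background correction, filters, variance model, replicates and threshold. Fits with no scaling and without both Stylo parent arrays were added after seeing the data.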

Additional observations from a re-analysis of the deposited data

Results flagged for a closer look

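The sorting effect, CSC minus parent, differed between the lines by limma's interaction term for 6 probes, with 2 arrays per group. The value is the effect in Star minus that in Stylo, on the log2 scale. CYB5R3 A_11_P050016 gave -2.67 (adjusted p = 0.00011) and POR A_11_P0000032965 gave -1.67 (adjusted p = 0.0003). Both were called above their parent in Stylo CSC. In Star CSC they stood below it by log2 changes of -0.95 and -0.31, neither of them called, and both of these changes turned with spike-in scaling. With normexp the CYB5R3 value was -0.085 and no longer called, and the POR value turned to 0.42. AKR1A1 A_11_P0000016455 gave 1.04 (adjusted p = 0.00062), and its direction turned with normexp (-0.31), spike-in scaling (-0.43) and no scaling (-0.41), while the other 4 rescalings ended its call at 0.44 to 0.86. NOS3 A_11_P0000019876 gave 2.17 (adjusted p = 9.1e-05), with a larger drop on sorting in Stylo than in Star, and lost its call with no scaling (0.73), spike-in scaling (0.71) and normexp (0.91). FMO1 A_11_P0000019785 gave 6.40 and A_11_P050891 gave 6.02 (adjusted p = 4.9e-05 for each). These 2 fitted values rest on 3 groups that were not well above background and are not bounds. Both FMO1 probes passed the filter only through Star CSC, so their values had to come out positive. No cause was tested.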

How the results depend on the processing

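With no scaling, direction turned in Star parent minus Stylo parent for POR A_11_P175353 2.01, AKR1A1 A_11_P0000016455 0.90, A_11_P0000020905 1.49 and A_11_P085536 1.37, NDUFS8 0.37, MSMO1 0.79, SLC7A1 0.066 and GUCY1B1 1.13. With no scaling, direction turned in Stylo CSC minus Stylo parent for POR A_11_P175353 1.61, AKR1A1 A_11_P0000016455 1.05, A_11_P0000020905 1.27 and A_11_P085536 1.27, NOS3 A_11_P053931 0.29 and SLC7A1 0.30. With no scaling, direction turned in Star CSC minus Star parent for POR A_11_P0000032965 0.20, AKR1A1 A_11_P0000020905 0.31 and A_11_P085536 0.42, NOS3 A_11_P0000019876 0.024, DHRS4 0.36 and CYP1B1 0.063. With no scaling, direction turned in Star CSC minus Stylo CSC for CYB5R3 0.61, POR A_11_P0000032965 0.62 and A_11_P175353 0.31, AKR1A1 A_11_P0000016455 0.50, A_11_P0000020905 0.53 and A_11_P085536 0.52, DHRS4 0.082, MSMO1 0.68 and CYP1B1 0.11. With no scaling, direction turned in the interaction for AKR1A1 A_11_P0000016455 -0.41, A_11_P0000020905 -0.96 and A_11_P085536 -0.85, NOS3 A_11_P053931 -0.53, NDUFS8 -0.069 and MSMO1 -0.10. With median scaling, direction turned in Star parent minus Stylo parent for POR A_11_P175353 0.25. With median scaling, direction turned in Stylo CSC minus Stylo parent for POR A_11_P175353 0.094. With median scaling, direction turned in Star CSC minus Star parent for AKR1A1 A_11_P0000020905 0.034 and A_11_P085536 0.15 and DHRS4 0.088. With median scaling, direction turned in Star CSC minus Stylo CSC for CYB5R3 0.093, POR A_11_P0000032965 0.10, AKR1A1 A_11_P0000020905 0.017 and A_11_P085536 0.0024 and MSMO1 0.17. With the percentile of probes detected on all arrays, direction turned in Star parent minus Stylo parent for POR A_11_P175353 0.17. With the percentile of probes detected on all arrays, direction turned in Star CSC minus Stylo CSC for CYB5R3 0.032, POR A_11_P0000032965 0.039 and MSMO1 0.10. With quantile normalization, direction turned in Star parent minus Stylo parent for POR A_11_P175353 0.38. With quantile normalization, direction turned in Stylo CSC minus Stylo parent for POR A_11_P175353 0.25. With quantile normalization, direction turned in Star CSC minus Stylo CSC for AKR1A1 A_11_P0000016455 0.41 and A_11_P085536 0.042 and MSMO1 0.18. With cyclic loess, direction turned in Star parent minus Stylo parent for POR A_11_P175353 0.21. With cyclic loess, direction turned in Stylo CSC minus Stylo parent for POR A_11_P175353 0.31. With cyclic loess, direction turned in Star CSC minus Stylo CSC for AKR1A1 A_11_P0000016455 0.29 and A_11_P085536 0.094 and MSMO1 0.28. With spike-in scaling, direction turned in Star parent minus Stylo parent for POR A_11_P175353 2.03, AKR1A1 A_11_P0000016455 0.92, A_11_P0000020905 1.51 and A_11_P085536 1.39, NDUFS8 0.39, MSMO1 0.80, SLC7A1 0.085 and GUCY1B1 1.14. With spike-in scaling, direction turned in Stylo CSC minus Stylo parent for POR A_11_P175353 2.11, AKR1A1 A_11_P0000016455 1.55, A_11_P0000020905 1.77 and A_11_P085536 1.77, NOS3 A_11_P053931 0.79, DUOX1 0.32, MSMO1 0.027, GUCY1B1 0.12, ARG2 0.34 and SLC7A1 0.79. With spike-in scaling, direction turned in Star CSC minus Star parent for CYB5R3 0.040, POR A_11_P0000032965 0.68 and A_11_P175353 0.39, AKR1A1 A_11_P0000020905 0.79 and A_11_P085536 0.90, NOS3 A_11_P0000019876 0.50 and A_11_P053931 0.24, DHRS4 0.84 and CYP1B1 0.54. With spike-in scaling, direction turned in Star CSC minus Stylo CSC for CYB5R3 0.61, POR A_11_P0000032965 0.62 and A_11_P175353 0.31, AKR1A1 A_11_P0000016455 0.50, A_11_P0000020905 0.53 and A_11_P085536 0.52, DHRS4 0.081, MSMO1 0.68 and CYP1B1 0.11. With spike-in scaling, direction turned in the interaction for AKR1A1 A_11_P0000016455 -0.43, A_11_P0000020905 -0.98 and A_11_P085536 -0.87, NOS3 A_11_P053931 -0.55, NDUFS8 -0.088 and MSMO1 -0.12. With normexp, direction turned in Star parent minus Stylo parent for POR A_11_P0000032965 -0.43 and A_11_P054086 -0.74, AKR1A1 A_11_P0000016455 0.43, A_11_P0000020905 0.73 and A_11_P085536 0.71 and MSMO1 0.18. With normexp, direction turned in Stylo CSC minus Stylo parent for CYB5R3 -0.64, POR A_11_P0000032965 -0.72 and A_11_P054086 -0.79, AKR1A1 A_11_P0000016455 0.59, A_11_P0000020905 0.72 and A_11_P085536 0.79 and HMOX1 -1.03. With normexp, direction turned in Star CSC minus Star parent for AKR1A1 A_11_P085536 0.053. With normexp, direction turned in Star CSC minus Stylo CSC for AKR1A1 A_11_P0000016455 0.11 and MSMO1 0.21. With normexp, direction turned in the interaction for POR A_11_P0000032965 0.42, A_11_P054086 0.11 and A_11_P175353 1.14, AKR1A1 A_11_P0000016455 -0.31, A_11_P0000020905 -0.79 and A_11_P085536 -0.74, NDUFS8 -0.043 and HMOX1 0.068.

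Relative to the median change of all tested probes, the unscaled and spike-in values stood where the scaled ones did, since those settings shift every probe of an array alike. Without scaling 4292 probes were called between Star CSC and Star parent, and 94.1% of the calls between Star parent and Stylo parent were higher, against 43.5%. With spike-in scaling the count for Star CSC minus Star parent was 7019, with 95.4% higher against 33.1%, and 2 of the 11 probes were called between the sorted groups. With normexp 1143 and 4019 probes were called in Star CSC minus Star parent and Star CSC minus Stylo CSC, and 1 and 3 of the 11 in Star CSC minus Star parent and the interaction. The CYB5R3 interaction was -0.085 with normexp and no longer called. With no filter on dim probes 26734, 28650 and 21988 were called in Star parent minus Stylo parent, Stylo CSC minus Stylo parent and the interaction. With only probes well above background on all arrays compared, 3, 2, 0, 2 and 2 of the 11 were called in the order of the comparisons, since dim probes left the test. The count of 0 stands beside 2 calls by limma's main setting. With no fold limit 7922 and 15288 were called in Star CSC minus Star parent and Star CSC minus Stylo CSC, and 5 of the 11 in the former.

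Leaving out 1 array at a time gave 14738 to 15234, 13834 to 14573, 2179 to 2992, 7078 to 8046 and 13085 to 13845 calls, and 7 to 7, 6 to 6, 2 to 3, 4 to 5 and 6 to 7 of the 11 probes, a lone array being assumed to vary like the other groups. POR A_11_P175353 turned without Stylo parent replicate 2 (0.32 in Star parent minus Stylo parent, over a range of -0.62 to 0.32, and 0.13 in Stylo CSC minus Stylo parent, over -0.81 to 0.13) and, in the interaction, without Stylo parent replicate 1 (0.21) or Stylo CSC replicate 2 (0.0083). AKR1A1 A_11_P085536 turned without Star parent replicate 2 (-0.18 to 0.0041) and MSMO1 without Star CSC replicate 1 (-0.38 to 0.30). With the replicate number as a block, 15147, 14458, 2525, 7867 and 13941 probes were called, and 7, 6, 2, 4 and 6 of the 11, changing no call of the 11. Without both Stylo parent arrays, 2667 and 7881 probes were called in the comparisons that do not use them, and 2 and 4 of the 11. No separate fit with slide as a block exists, since each slide holds 1 line. Of 1271 alternative values of the 11 probes, 1131 kept direction and side of the threshold, and 92 turned. Where no value shows it, the cause was not tested. Signal over background limits CYB5R3, FMO1 and 2 NOS3 probes to bounds or no value, and in Stylo parent it also limits POR A_11_P175353 on both arrays and A_11_P0000032965 on 1 of 2.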
